A study of Mus musculus with 12 samples.

Results

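Intron-holding and other non-coding transcripts of the genes for SR proteins, hnRNPs and their partners in splicing were followed in the brain of 5 × FAD mice and of wild-type (WT) mice. The members were taken by gene name: every row of the deposited lncRNA count table whose transcript belongs, in the GENCODE M21 annotation, to any of 49 splicing genes. The rule found 185 transcripts of 41 genes among the 48033 transcripts in the table. Of these, 118 were annotated as retained-intron transcripts and 67 as processed transcripts, a class of spliced RNA with no annotated reading frame. Srsf7, Srsf12, Hnrnpa1, Hnrnpab, Hnrnpc, Hnrnpf, Hnrnpul2 and U2af1 had no transcript among the rows analysed here.

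SR proteins bind exonic enhancers through an RNA recognition motif and recruit the spliceosome through a tail rich in arginine and serine, whereas hnRNPs often act as repressors of the same sites. The CLK and SRPK kinases phosphorylate the SR tail and thereby set where SR proteins stay in the nucleus. Many of these genes control their own level by keeping an intron in the nuclear transcript, or by including a poison exon, an exon with an early stop codon that sends the mRNA to nonsense-mediated decay (NMD). The members described here are non-coding transcripts of these genes, many of which end inside an intron or hold a whole one, and no protein or coding mRNA was measured in the table.

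Total RNA from the hippocampus and the cerebral cortex was depleted of ribosomal RNA and sequenced from both ends as stranded libraries. The 4 groups were WT hippocampus, 5 × FAD hippocampus, WT cortex and 5 × FAD cortex, with 3 libraries each from 3 mice per genotype. All mice were 7 months old and of C57BL/6J background, and the WT mice were non-transgenic. The 5 × FAD mice carry human APP and presenilin transgenes with familial Alzheimer's disease mutations under the neuronal Thy1 promoter. Both regions came from each mouse, so the hippocampus and cortex libraries are not from separate animals.

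The members fell into 6 roles. There were 39 transcripts of SR proteins (Srsf genes, Tra2a and Tra2b), 18 of the SR-related proteins Srrm1, Srrm2 and Son, and 59 of hnRNPs. The SR protein kinases (Clk1 to Clk4, Srpk1 and Srpk2) had 34, the RNA-binding proteins TDP-43, Ewsr1, Taf15 and Sfpq had 21, and the factors that help U1 and U2 to find splice sites (Luc7l, Luc7l2, Luc7l3 and U2af2) had 14.

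In members that hold a whole coding intron, the splice sites of that intron were not used. By the annotation this was so for 37 of the 118 retained-intron members and 13 of the 67 processed-transcript members, with no limit on intron length. These counts include Srsf5 ENSMUST00000125814, ENSMUST00000151968 and ENSMUST00000152662, whose only such intron is an annotated gap of 21 bases. The shared case is the kinase family, where transcripts of all 4 Clk genes kept introns 3 and 4 of the 12 introns in the coding transcript, around the exon between them. This group was chosen after its structure was seen. In Clk1 the introns lie on the minus strand of GRCm38 at chr1:58420212-58421082 (871 bases) and chr1:58419734-58420120 (387 bases), and ENSMUST00000156931 and ENSMUST00000129577 hold both whole. In Clk2 they lie on the plus strand at chr3:89168924-89169617 (694 bases) and chr3:89169703-89170048 (346 bases), inside ENSMUST00000138822. In Clk3 they lie on the minus strand at chr9:57758724-57760823 (2100 bases) and chr9:57758351-57758626 (276 bases), inside ENSMUST00000215109. In Clk4 they lie on the plus strand at chr11:51272023-51273077 (1055 bases) and chr11:51273169-51273559 (391 bases), inside ENSMUST00000148467. Below are the 5′ splice site (3 exon bases, then the first 6 intron bases in capitals) of intron 3 and then both ends of intron 4, for which the 3′ splice site has the intron's last AG in capitals and 3 exon bases after it. All were read 5′ to 3′ on the gene's strand from the GRCm38 genome.
Clk1 intron 3, 5′ site: gggGTATGA
Clk2 intron 3, 5′ site: tcaGTGAGT
Clk3 intron 3, 5′ site: tcgGTGAGT
Clk4 intron 3, 5′ site: tcgGTATGA
Clk1 intron 4, 5′ site: gatGTATAG
Clk2 intron 4, 5′ site: gatGTACAA
Clk3 intron 4, 5′ site: gatGTACAG
Clk4 intron 4, 5′ site: gatGTATAG
Clk1 intron 4, 3′ site: taattattcctcttttttAGatg
Clk2 intron 4, 3′ site: cctactttctttcgtttcAGatg
Clk3 intron 4, 3′ site: cagcttcttctttctcacAGatg
Clk4 intron 4, 3′ site: ctttctctcccttactttAGatg
None of the 4 intron 4 donors was the full U1 match GTAAGT, and Clk1 and Clk4, which are close paralogs, shared GTATAG.

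**Figure D1:**
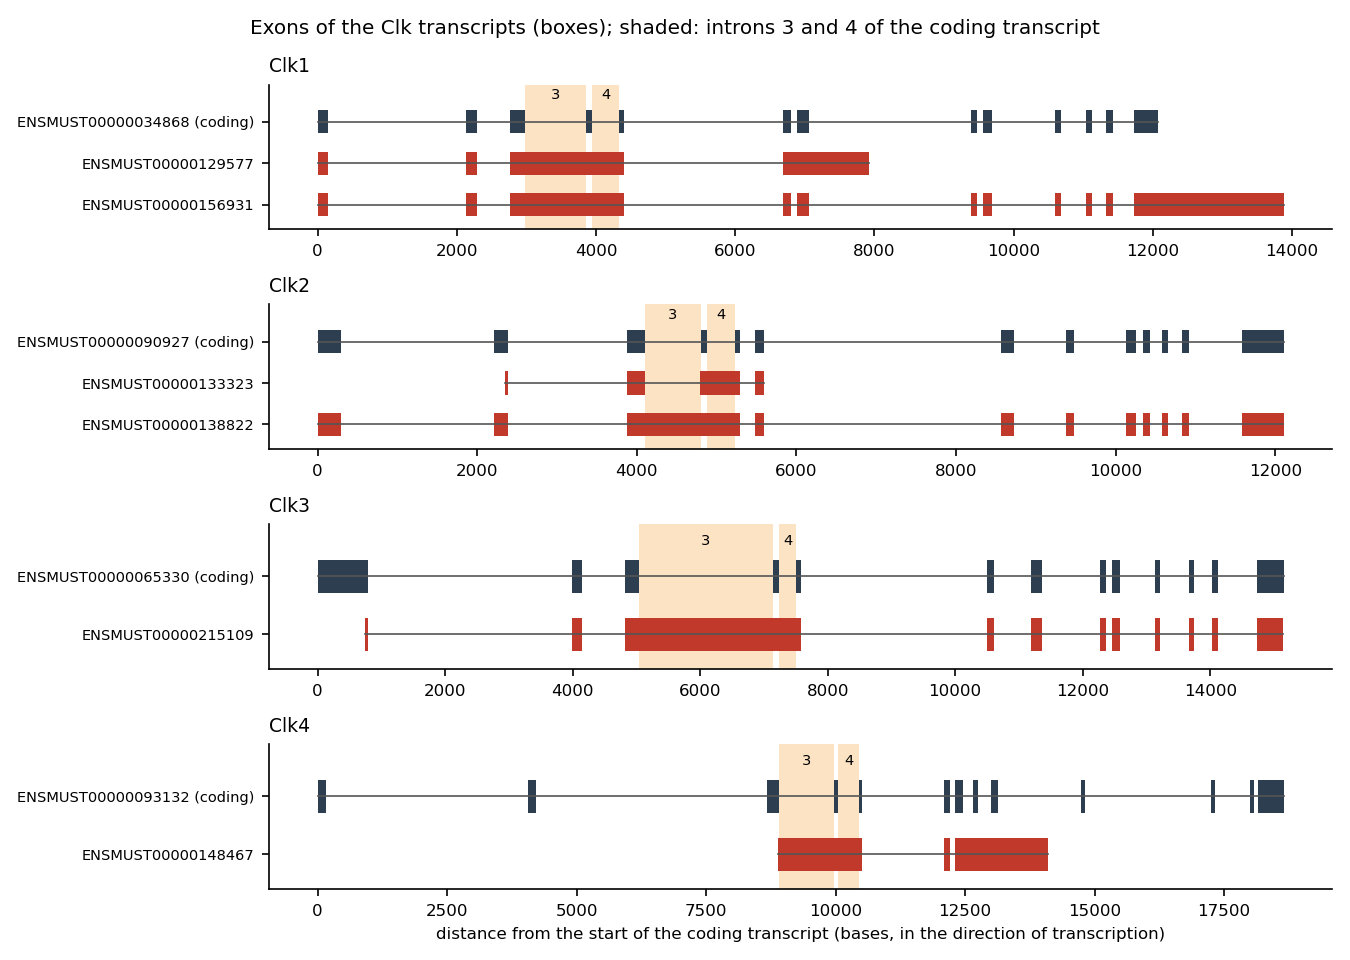
Exon maps of the Clk1, Clk2, Clk3 and Clk4 transcripts against distance in bases from the start of the coding transcript, in the direction of transcription, with coding transcripts in dark blue and retained-intron members in red. Introns 3 and 4 of the coding transcript are shaded, and a red box runs across both in every gene.

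Across the members, 59 whole coding-gene introns of at least 50 bases were held inside an exon, in 25 genes, with a median length of 378 bases. All listed transcripts together held 8070 such introns of 3772 genes, with a median of 273 bases. The ends were GT and AG in 58 of the 59 (98.3%), as in 98.0% of all held introns. The donor GTAAGT, searched on the transcribed strand only, stood at 10 of the 59 (16.9%) and at 9.3% of all held introns. GTATAG stood at 2 of the 59 (3.39%), the Clk1 and Clk4 introns above, and at 0.17% of all held introns.

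An exon of an annotated NMD transcript lay inside 5 of the 59 introns (8.5%), against 1.7% of all held introns. These were introns of Hnrnpa2b1, Srrm1, Srsf2, Srsf3 and Srsf6, of 1059 to 2375 bases, beside medians of 378 for the 59 and 273 for all. The shares were not adjusted for intron length or for the number of annotated transcripts of a gene. No protein-coding transcript had an exon with the same ends in 3 of the 5 (Srrm1, Srsf3 and Srsf6, or 5.1% of the held introns, against 1.2% of all), whereas those of Hnrnpa2b1 and Srsf2 are exons of a protein-coding transcript too. In Srsf6, an exon of the protein-coding ENSMUST00000126163 starts at the same base, chr2:162932815, but has another end. The Srsf2 case shows an exon inside a held intron, and its splice sites are given because its transcript is among the SR members with most counts. ENSMUST00000138484 (chr11:116849904-116852219, minus strand) held the 1059-base intron chr11:116850962-116852020 whole, and the exon lies inside it at chr11:116851648-116851751.
Srsf2 inner exon, 3′ site before it: tgcattttccccctttaaAGctg
Srsf2 inner exon, 5′ site after it: cagGTTTGT
Srsf5 intron 5, 5′ site: cagGTTTGT
Srsf5 intron 5, 3′ site: cataattgtcttgtgttaAGgat
The Srsf5 intron (chr12:80947866-80949094, plus strand, 1229 bases) is shown beside it because ENSMUST00000153056, ENSMUST00000133783 and ENSMUST00000151036 all hold it.

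Retained-intron members were close to other transcripts of their class in structure. Their median length was 886 bases, with a median of 54.42% of bases that coding exons also hold, against 865 bases and 58.01% for all 18680 retained-intron transcripts compared. A whole coding intron was held by 37 of the 118 (31.36%, against 29.58%), and 91 ended inside an intron (77.12%, against 83.04%). Among the 67 processed-transcript members 13 held a whole intron (19.4%), against 5.07% of all processed transcripts compared. Several of the 13 are transcripts of Hnrnph1, whose 15 listed transcripts are all of this class, and some of these hold the same introns. The 13 also include Srsf5 ENSMUST00000125814 with its gap of 21 bases, so the share is not spread evenly over the genes. The high share of coding-exon bases bears on every value below: reads of the coding mRNA over those bases could have been assigned to a member, and 155 of the 185 members also shared bases with another member of the same gene.

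The libraries held 3517967 to 5014389 counts, of which the members took 0.643 to 0.892%. Levels are given as CPM, a transcript's counts per 1000000 counts of its library after TMM scaling, and a count of 0 allows up to 3 counts, or 0.598 to 0.853 CPM, for counting error only. Some libraries went against their labels or stood apart. The series gives 2 females and 1 male per group, but Xist, the RNA that coats the inactive X chromosome, had 30468 to 46630 counts in 5 × FAD libraries 1 and 2 of both regions and 4 to 25 in the other 8 libraries. Counts of Y-linked transcripts were 0 in those 4 libraries and 1074 to 1661 in the others, so in 5 × FAD libraries 1 and 2 genotype and sex cannot be told apart. Transcripts of 5 of 14 microglial genes (Aif1, C1qc, Cd68, Itgam and Trem2) summed to 26.88 to 36.31 CPM in WT hippocampus and to 178.9, 197.0 and 47.84 in 5 × FAD libraries 1, 2 and 3. In cortex they summed to 38.84 to 66.59 CPM in WT and to 246.9, 212.5 and 35.43 in 5 × FAD, so 5 × FAD library 3 lay far below libraries 1 and 2 and near the WT level in both regions. The region labels matched their markers: Lct and Zbtb20, the listed genes of hippocampal neurons, summed to 105.2 to 125.0 CPM in hippocampus and 25.33 to 48.42 in cortex, and 7 genes of cortical neurons to 196.7 to 322.5 and 361.8 to 598.7. In bulk tissue, fewer cells of a type and less RNA per cell cannot be told apart.

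The summed level of the members overlapped between the genotypes in both regions. In WT hippocampus the 185 transcripts summed to 7964, 7844 and 7245 CPM, and in 5 × FAD hippocampus to 8691, 7638 and 6914. The groups overlapped, with means of 7684 ± 385 and 7748 ± 894 CPM (SD, n = 3) and a ratio of 1.01. In WT cortex the sums were 7446, 7116 and 7050 CPM and in 5 × FAD cortex 7464, 6379 and 7500, a ratio of 0.987. Without 5 × FAD libraries 1 and 2 the ratios were 0.9 and 1.04, and without library 3 they were 1.06 and 0.961.

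**Figure D2:**
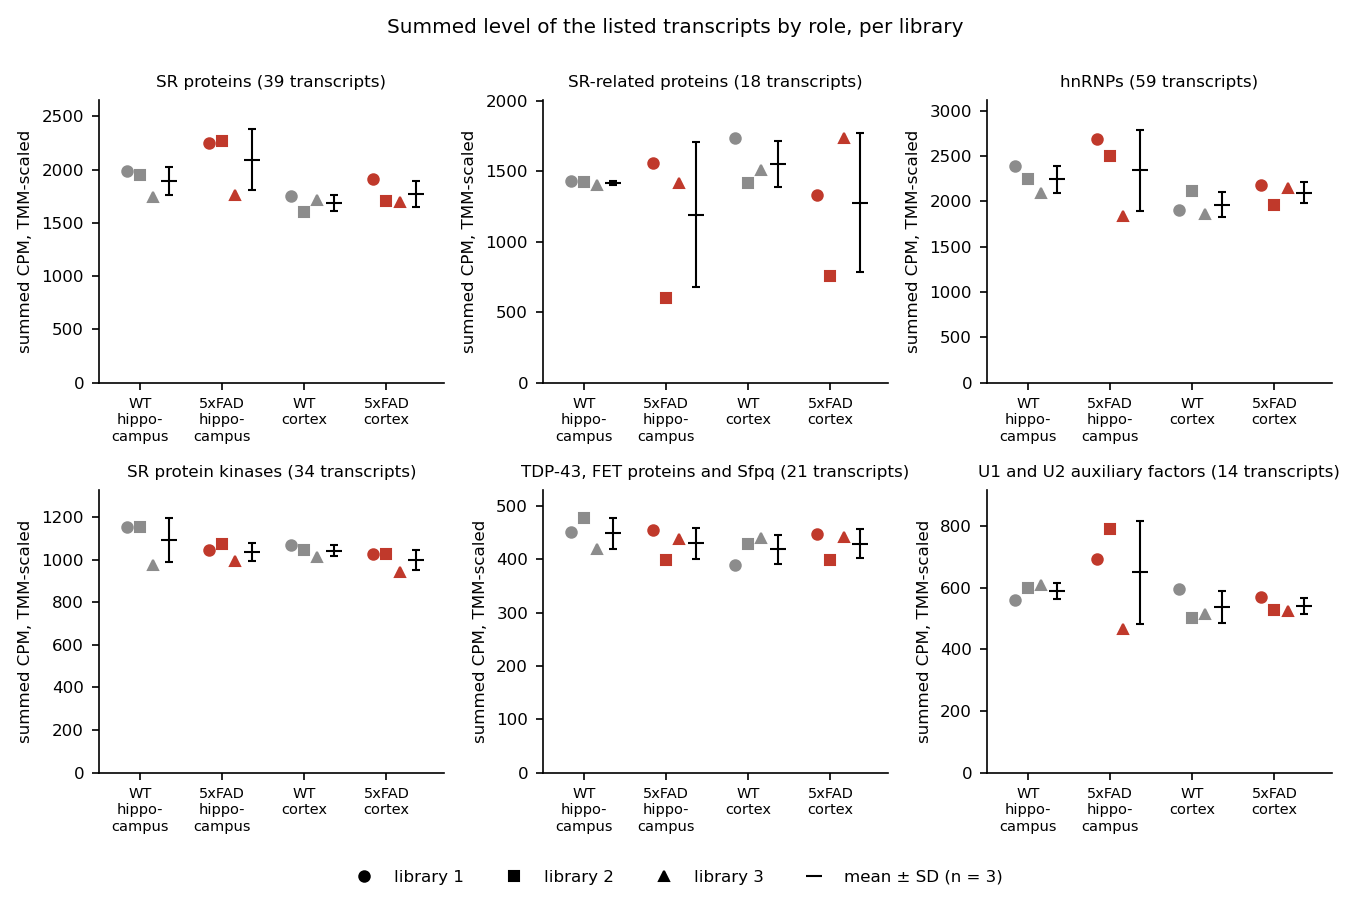
Summed CPM of the listed transcripts of each role (vertical axes from 0) in each library, with marker shapes for library 1, 2 and 3 of a group and bars for the mean ± SD of 3 libraries. For SR-related proteins 5 × FAD library 2 is low in both regions, at 604.2 in hippocampus and 758.3 in cortex, and the SR protein kinases lie between 942.9 and 1153 in all 12 libraries.

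Most members were scarce. The mean over the 12 libraries was at least 100 CPM for 20 members, 10 to 100 CPM for 80 and under 10 CPM for 85, with a median of 11.9 and a highest value of 804. The 10 most abundant members held 35.7% of all member counts, 118 members had at least 10 counts in every library, and 25 had a count of 0 in some library. Per kilobase of transcript, Srrm2 led with 331 CPM for ENSMUST00000190568 and 269 for ENSMUST00000186914, followed by Sfpq ENSMUST00000143168 with 152 and Hnrnpl ENSMUST00000173578 with 136.

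In the genotype comparison of the hippocampus, 152 members were tested with edgeR's quasi-likelihood test and 0 passed an adjusted p of 0.05 with Benjamini-Hochberg adjustment over all 21894 transcripts tested, of which 4 (0.0183%) passed. DESeq2 also called 0 members, against 127 of all transcripts (0.58%). At an unadjusted p under 0.05 there were 11 members (6 higher and 5 lower in 5 × FAD, or 7.24% of those tested), against 7.57% of all transcripts. The 3 libraries of each genotype did not overlap for 28 members (15 higher and 13 lower, 18.4%), against 15.7% of all transcripts. The median log2 fold change of the members was 0.16, beside 0.02 for all transcripts, with 94 members above 0 and 58 below. It was 0.22 without 5 × FAD library 3 and -0.12 without libraries 1 and 2. The 95% interval lay within a 2-fold change either way for 50 members (32.9%) and within a 4-fold change for 127. With 3 libraries a group, p-values measure only the spread between these libraries.

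In the cortex 153 members were tested and 0 passed, against 12 of 21999 transcripts (0.0545%). DESeq2 called 1 member, the Hnrnpa3 transcript described below, and 102 of all transcripts (0.464%). At an unadjusted p under 0.05 there were 8 members (4 higher and 4 lower, 5.23%), against 5.33% of all transcripts, and the groups did not overlap for 11 (7.19%), against 12.1%. The median log2 fold change was 0.05 beside 0.00 for all transcripts, and 76 members (49.7%) had an interval within a 2-fold change.

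**Figure D3:**
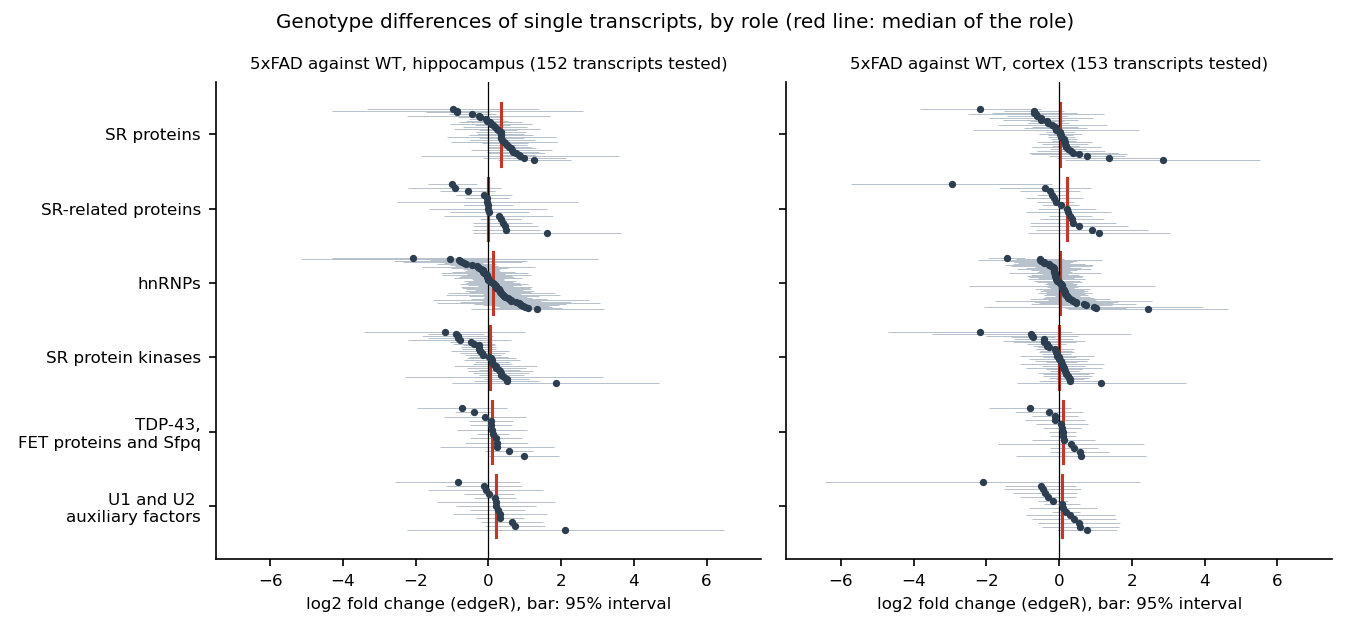
Log2 fold change of each tested member in 5 × FAD against WT, with its 95% interval, by role, in the hippocampus (152 members) and the cortex (153), with a red line at each role's median. SR protein transcripts in the hippocampus lie mostly right of 0, with a median of 0.35, but most intervals cross 0.

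SR proteins in the hippocampus had 24 of 32 tested transcripts above 0 and a median log2 fold change of 0.35, beside 0.02 for all transcripts. This median was 0.24, 0.28 and 0.38 without 5 × FAD library 1, 2 and 3 in turn, and -0.01 without libraries 1 and 2 together, with 16 of 33 above 0. The summed SR protein level was 1984, 1951 and 1741 CPM in WT and 2245, 2269 and 1764 in 5 × FAD, so the 2 high libraries were those with Xist and the high microglial level. Astrocyte transcripts (6 of 9 genes, 21 transcripts) were lowest in the same libraries of the hippocampus. They summed to 1484 to 1566 CPM in WT hippocampus and to 605.9, 541.4 and 1210 in 5 × FAD libraries 1, 2 and 3. In cortex this order was not kept, at 1621, 980.5 and 1270 CPM in WT and 1551, 1385 and 983.8 in 5 × FAD. Oligodendrocyte transcripts (5 of 10 genes, 9 transcripts) summed to 347.7 to 438.4 CPM in WT and 501.8 to 583.3 in 5 × FAD hippocampus, and to 295.2 to 472.8 and 539.0 to 611.8 in cortex. No listed marker transcript of these cell types was at 0 in all libraries. The part of cell make-up and of sex in the hippocampal values was not tested. In the cortex the SR protein median was 0.03.

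Srsf5, an SR protein that binds exonic enhancers, had the smallest unadjusted p of the hippocampus comparison. Its processed transcript ENSMUST00000125814 (chr12:80945548-80948504, plus strand, 6 exons) stood at 54.7, 57.0 and 60.1 CPM in WT hippocampus and at 115, 84.7 and 104 in 5 × FAD hippocampus. The groups did not overlap, and the log2 fold change was 0.84 (SE 0.20, 95% interval 0.37 to 1.31, edgeR quasi-likelihood with Benjamini-Hochberg adjusted p = 0.520). In cortex the groups overlapped, at 85.8, 107 and 78.5 CPM in WT and 60.8, 72.4 and 80.8 in 5 × FAD, with a log2 fold change of -0.34 (SE 0.20, edgeR quasi-likelihood with Benjamini-Hochberg adjusted p = 0.913). The difference between the 2 genotype effects was 1.17 (SE 0.27, edgeR quasi-likelihood with Benjamini-Hochberg adjusted p = 0.612), and DESeq2 called it with an adjusted p of 0.00836. Without 5 × FAD libraries 1 and 2 the hippocampal log2 fold change was 0.87, so library 3 alone lay as far from WT. The sum over 6 Srsf5 transcripts was 317, 347 and 300 CPM in WT and 451, 380 and 345 in 5 × FAD hippocampus, which overlapped.

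Srsf2, whose protein binds exonic enhancers and whose intron is shown above, had 1 main transcript. ENSMUST00000138484 was at 154, 132 and 163 CPM in WT hippocampus and 263, 238 and 157 in 5 × FAD. Libraries 1 and 2 were high and library 3 was in the WT range, and the log2 fold change of 0.57 (SE 0.25, edgeR quasi-likelihood with Benjamini-Hochberg adjusted p = 0.663) did not pass. The cortical values were 160, 160 and 132 CPM in WT and 173, 167 and 155 in 5 × FAD. Srsf2 and the next gene were chosen after their values were seen. Srsf4 has a single listed transcript, ENSMUST00000030743, which was at 53.0, 64.8 and 45.6 CPM in WT hippocampus and 91.2, 55.7 and 110 in 5 × FAD, and at 65.2, 58.0 and 84.4 in WT and 59.2, 43.8 and 65.4 in 5 × FAD cortex.

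Srsf10, a splicing repressor when dephosphorylated, contributed the lowest member among the 5 smallest p-values. Its processed transcript ENSMUST00000142002 had 9, 11 and 10 counts in WT hippocampus and 17, 35 and 14 in 5 × FAD, or 1.92, 2.35 and 2.27 against 4.18, 8.06 and 3.42 CPM. The log2 fold change was 1.26 (SE 0.42, edgeR quasi-likelihood with Benjamini-Hochberg adjusted p = 0.611), on few counts, and ran from 0.65 to 1.5 over the alternatives. Tra2a ENSMUST00000204013, the SR member with most counts, is a single exon of 3788 bases with 5.1% of its bases in coding exons. It was among the steadier members, with 245, 245 and 210 CPM in WT hippocampus, 287, 258 and 208 in 5 × FAD hippocampus, 204, 205 and 245 in WT cortex and 226, 230 and 216 in 5 × FAD cortex. Its log2 fold changes were 0.12 (95% interval -0.36 to 0.60) and 0.04 (-0.31 to 0.38).

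**Figure D4:**
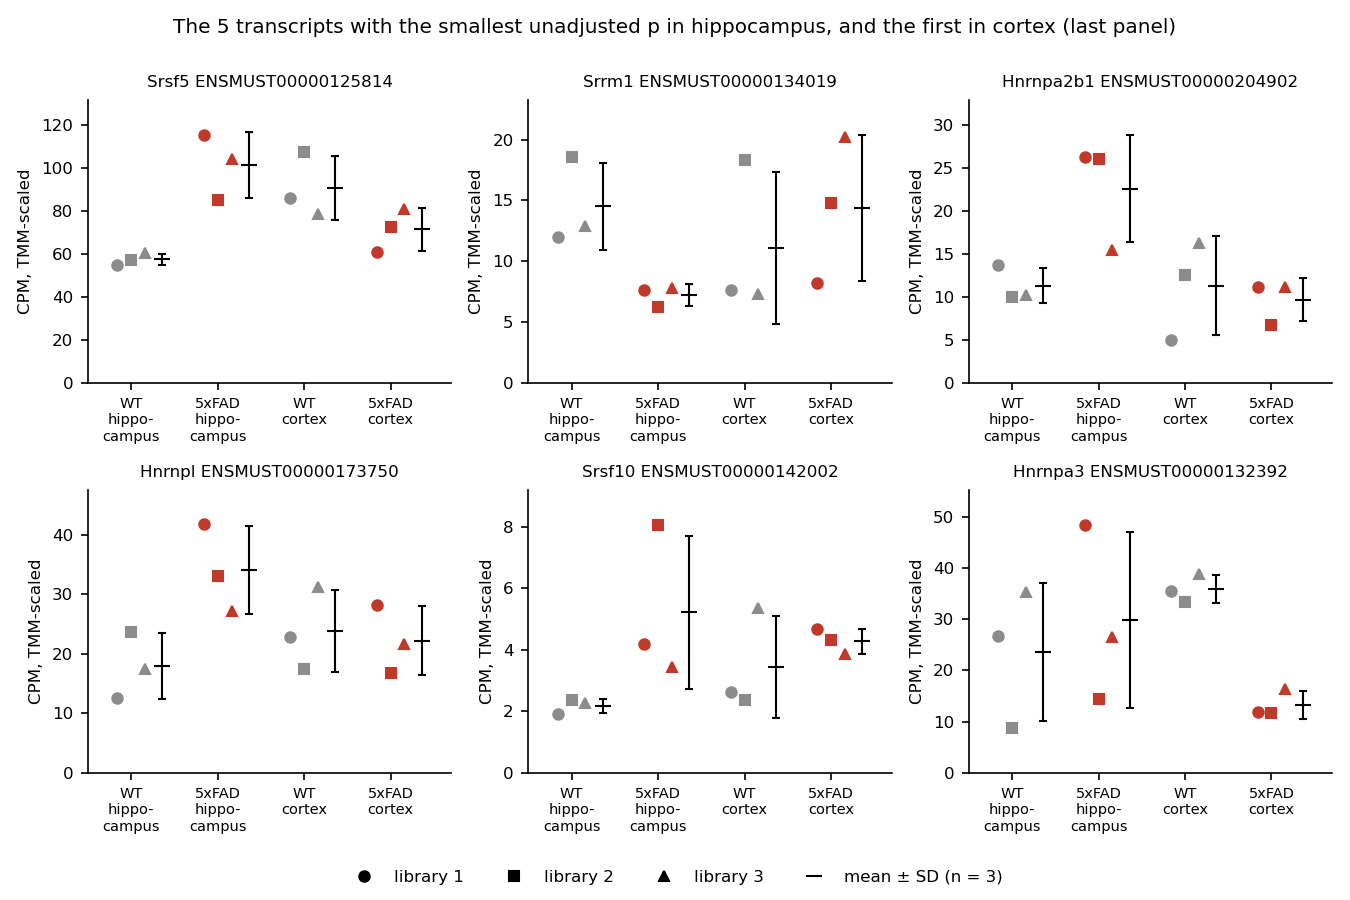
CPM per library (vertical axes from 0) of the 5 members with the smallest unadjusted p in the hippocampus and, in the last panel, Hnrnpa3 ENSMUST00000132392, the first in cortex, with bars for the mean ± SD of 3 libraries. Srsf5 is at 54.7 to 60.1 in WT and 84.7 to 115 in 5 × FAD hippocampus, and Hnrnpa3 at 33.4 to 38.8 in WT and 11.6 to 16.4 in 5 × FAD cortex.

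Srrm1 and Srrm2 encode large scaffold proteins of nuclear speckles, and Son encodes a further one. Srrm1 ENSMUST00000134019 (chr4:135345692-135353202, minus strand) was at 12.0, 18.6 and 12.9 CPM in WT hippocampus and 7.62, 6.21 and 7.81 in 5 × FAD. The groups did not overlap, with a log2 fold change of -0.99 (SE 0.28, edgeR quasi-likelihood with Benjamini-Hochberg adjusted p = 0.611), which ran from -1.11 to -0.78 over the alternatives. In cortex the values were 7.59, 18.3 and 7.32 CPM in WT and 8.21, 14.8 and 20.2 in 5 × FAD, which overlapped. Of the 15 tested SR-related transcripts, 7 were above 0 in the hippocampus, with a median of -0.01, and 9 in the cortex, with a median of 0.21.

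Srrm2 ENSMUST00000186914 (chr17:23819308-23822528, plus strand, 83.55% coding-exon bases) had the most counts of all members. It was at 982, 932 and 926 CPM in WT hippocampus and 383, 186 and 916 in 5 × FAD hippocampus. Cortical levels were 1130, 883 and 1010 CPM in WT and 846, 244 and 1210 in 5 × FAD. Library 2 of 5 × FAD was low in both regions while library 3 was close to or above the WT level. The log2 fold changes were -0.92 (95% interval -2.20 to 0.35) and -0.39 (-1.65 to 0.87). The sum over the 5 Srrm2 transcripts was 1280, 1180 and 1220 CPM in WT hippocampus and 1320, 426 and 1300 in 5 × FAD hippocampus. Library 1 was thus low in this transcript but not in the gene sum, and there Srrm2 ENSMUST00000189977 was at 690 CPM. The processed-transcript members, which include ENSMUST00000186914, summed to 2531, 2435 and 2192 CPM in WT and 2110, 1785 and 2142 in 5 × FAD hippocampus. The retained-intron members, which include ENSMUST00000189977, summed to 5433, 5409 and 5053 in WT and 6581, 5853 and 4772 in 5 × FAD. Without the Srrm2 transcripts, all members summed to 6680, 6660 and 6025 CPM in WT and 7374, 7212 and 5614 in 5 × FAD hippocampus. Of the 5 Srrm2 transcripts, ENSMUST00000186914 is the 1 in the processed class. The mean of that class was 2386 CPM in WT and 2012 in 5 × FAD hippocampus. For ENSMUST00000186914 alone it was 947 and 495, a larger fall than that of the whole class. The classes were not summed without Srrm2, and no contrast of the classes apart from these transcripts was shown.

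The hnRNPs had 29 of 52 tested transcripts above 0 in the hippocampus (median 0.14) and 27 of 50 in the cortex (median 0.03). Their hippocampal median was 0.22 without 5 × FAD library 3 but -0.33 without libraries 1 and 2. Hnrnpa2b1, which binds RNA transport signals in neurons as well as splice regions, had a retained-intron transcript, ENSMUST00000204902 (chr6:51464632-51466237, minus strand), at 13.7, 10 and 10.2 CPM in WT hippocampus and 26.3, 26.0 and 15.4 in 5 × FAD. Every 5 × FAD library was above WT, with a log2 fold change of 1.01 (SE 0.30, edgeR quasi-likelihood with Benjamini-Hochberg adjusted p = 0.611). The cortex libraries stood at 4.98, 12.5 and 16.3 CPM in WT and 11.1, 6.73 and 11.1 in 5 × FAD. The hnRNP member with most counts, Hnrnpa2b1 ENSMUST00000205204, was at 209, 181 and 175 CPM in WT hippocampus and 288, 244 and 189 in 5 × FAD, and at 148, 195 and 178 against 178, 181 and 187 in cortex. It holds 4 of the introns counted above, and its hippocampal log2 fold change was 0.37 (95% interval -0.16 to 0.89).

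Hnrnpl, which represses exons at CA-rich sequence, had ENSMUST00000173750 (chr7:28808806-28816960, plus strand) at 12.6, 23.7 and 17.5 CPM in WT hippocampus and 41.8, 33.1 and 27.1 in 5 × FAD. The groups did not overlap and the log2 fold change was 0.94 (SE 0.31, edgeR quasi-likelihood with Benjamini-Hochberg adjusted p = 0.611). It ran from 0.61 to 1.18 over the alternatives. In cortex it was at 22.8, 17.5 and 31.2 CPM in WT and 28.2, 16.7 and 21.6 in 5 × FAD. The sum over the 7 Hnrnpl transcripts was 290, 311 and 341 CPM in WT and 328, 275 and 364 in 5 × FAD hippocampus, which overlapped.

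Hnrnpa3 stood first among the members in the cortex. Hnrnpa3 ENSMUST00000132392 (chr2:75659280-75662033, plus strand, 596 bases, 86.91% coding-exon bases) holds the 78-base intron 3 at chr2:75661818-75661895. It had 150, 155 and 138 counts in WT cortex and 53, 43 and 72 in 5 × FAD cortex, or 35.6, 33.4 and 38.8 against 11.8, 11.6 and 16.4 CPM. The groups were well apart, with a log2 fold change of -1.44 (SE 0.21, 95% interval -1.95 to -0.93, edgeR quasi-likelihood with Benjamini-Hochberg adjusted p = 0.268). DESeq2 gave -1.45 with an adjusted p of 0.000384, and over the alternatives the adjusted p ran from 0.000384 to 0.95. In the hippocampus the same transcript spread widely, at 26.7, 8.75 and 35.4 CPM in WT and 48.4, 14.5 and 26.6 in 5 × FAD. Without 5 × FAD libraries 1 and 2 the cortical log2 fold change was -1.14. It is the only listed transcript of the gene, and most of its bases are shared with the coding mRNA, so reads of the mRNA or of pseudogene copies could have been counted here.

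Hnrnph1, which binds G-rich runs near splice sites, had 2 of the 5 smallest p-values in cortex. ENSMUST00000128220 was at 6.16, 7.76 and 11.3 CPM in WT cortex and 16.6, 11.6 and 22.3 in 5 × FAD, with a log2 fold change of 1.01 (SE 0.35, edgeR quasi-likelihood with Benjamini-Hochberg adjusted p = 0.913). ENSMUST00000123371 was at 15.4, 3.23 and 0.844 CPM in WT cortex and 55.7, 24.2 and 26.1 in 5 × FAD, with a log2 fold change of 2.43 (SE 0.91, edgeR quasi-likelihood with Benjamini-Hochberg adjusted p = 0.913). Both sets of libraries were apart in cortex but not in hippocampus, where the second ran from 4.31 to 14.7 in WT and from 1.47 to 32.0 in 5 × FAD. ENSMUST00000123371 holds the same introns of 1494 and 939 bases as Hnrnph1 ENSMUST00000126737, described below. In 5 × FAD hippocampus they had 6, 139 and 88 counts and 217, 0 and 0 counts. The Hnrnph1 gene sum had a cortical log2 fold change of 0.33 (SE 0.14, edgeR quasi-likelihood with Benjamini-Hochberg adjusted p = 0.739 over gene sums).

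The SR protein kinases had 15 of 28 tested transcripts above 0 in the hippocampus (median 0.04) and 14 of 31 in the cortex (median -0.00). The hippocampus groups did not overlap for 6 of them (21.4%, all lower in 5 × FAD), against 15.7% of all transcripts, and in the cortex for 4 (12.9%, of which 3 were lower), against 12.1%. Srpk1, the mainly cytoplasmic kinase that sends SR proteins to the nucleus, was lower in mean in both regions and was picked out after its values were seen. Srpk1 ENSMUST00000126683 (chr17:28595463-28600886, minus strand, 18.1% coding-exon bases) was at 103, 84.7 and 89.7 CPM in WT hippocampus and 70.8, 73.9 and 84.0 in 5 × FAD hippocampus. In cortex it was at 113, 114 and 111 CPM in WT and 91.8, 92.8 and 95.8 in 5 × FAD. Neither pair of groups overlapped, and the log2 fold change was -0.27 in both (SE 0.18 in hippocampus and 0.13 in cortex, edgeR quasi-likelihood with Benjamini-Hochberg adjusted p = 0.739 and 0.913).

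The sum over the 4 Srpk1 transcripts was 141, 118 and 119 CPM in WT and 101, 99.9 and 116 in 5 × FAD hippocampus. ENSMUST00000126683 made up 70.2 to 76.6% of this sum, so the sum could not differ much from that transcript. The cortical sums were 158, 156 and 153 CPM in WT and 122, 129 and 125 in 5 × FAD, and its log2 fold change was -0.32 (SE 0.12, edgeR quasi-likelihood with Benjamini-Hochberg adjusted p = 0.728 over gene sums). A smaller transcript, ENSMUST00000145730, which shares 139 bases with it, had 33, 41 and 25 counts in WT cortex and 18, 19 and 23 in 5 × FAD. The log2 fold change of the latter was -0.73 (SE 0.25, edgeR quasi-likelihood with Benjamini-Hochberg adjusted p = 0.913). In the hippocampus Srpk1 ENSMUST00000136504 went the other way, with a log2 fold change of 0.34 (SE 0.33), while the other Srpk1 transcripts were below 0. Both regions come from the same mice, so the 2 regions are not independent samples of the genotypes.

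The Clk transcripts that hold introns 3 and 4 differed among themselves. Clk3 ENSMUST00000215109, the kinase member with most counts, was at 215, 160 and 161 CPM in WT hippocampus, 158, 141 and 179 in 5 × FAD hippocampus, 167, 152 and 196 in WT cortex and 179, 165 and 146 in 5 × FAD cortex. It was level across the groups, with log2 fold changes of -0.15 (95% interval -0.65 to 0.35) and -0.07 (-0.47 to 0.33). Clk4 ENSMUST00000148467 was at 141, 133 and 111 CPM in WT hippocampus, 192, 182 and 113 in 5 × FAD hippocampus, 87.0, 111 and 111 in WT cortex and 111, 113 and 118 in 5 × FAD cortex. Clk2 ENSMUST00000138822 was at 84.6, 54.2 and 60.6 CPM in WT hippocampus, 70.5, 106 and 103 in 5 × FAD hippocampus, 80.6, 108 and 71.5 in WT cortex and 77.4, 87.4 and 81.1 in 5 × FAD cortex.

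Both Clk1 transcripts had a lower hippocampal mean in 5 × FAD. Clk1 ENSMUST00000129577 was at 80.1, 48.4 and 37.4 CPM in WT hippocampus and 34.9, 26.7 and 27.3 in 5 × FAD, with a log2 fold change of -0.89 (SE 0.33, edgeR quasi-likelihood with Benjamini-Hochberg adjusted p = 0.625). Cortical values were 36.8, 38.6 and 29.0 CPM in WT and 27.1, 45.7 and 46.8 in 5 × FAD. Clk1 ENSMUST00000156931 had a single high library in each WT group, at 45.5, 228 and 67.2 CPM in WT hippocampus and 155, 47.2 and 57.7 in WT cortex, beside 50.4, 77.6 and 66.4 in 5 × FAD hippocampus and 65.4, 59.5 and 30.2 in 5 × FAD cortex.

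Tardbp encodes TDP-43, which represses cryptic exons and regulates its own mRNA. Its 5 listed transcripts had few counts, and all but ENSMUST00000190478 were near the floor. Tardbp ENSMUST00000190478 had 4, 10 and 24 counts in WT hippocampus, 16, 16 and 9 in 5 × FAD hippocampus, 19, 22 and 4 in WT cortex and 37, 24 and 6 in 5 × FAD cortex. ENSMUST00000188380 had 0 to 6 counts, ENSMUST00000189041 0 to 2, ENSMUST00000186317 0 to 3 and ENSMUST00000187937 had 0 in every library. A genotype difference was not detectable at this depth: the log2 fold change of the first was 0.24 (95% interval -1.32 to 1.80) in hippocampus and 0.60 (-1.19 to 2.39) in cortex. Sfpq, a paraspeckle protein, had the transcript with most counts in this role, and this processed transcript, ENSMUST00000143168, was at 170, 161 and 143 CPM in WT hippocampus, 216, 151 and 126 in 5 × FAD hippocampus, 125, 131 and 127 in WT cortex and 128, 130 and 151 in 5 × FAD cortex.

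Among the U1 and U2 auxiliary factors, 10 of 13 tested transcripts were above 0 in the hippocampus (median 0.20) and 8 of 14 in the cortex (median 0.09). The hippocampal median was 0.42 without 5 × FAD library 3 but -0.3 without libraries 1 and 2. Luc7l2, a U1 partner, had the transcript with most counts, ENSMUST00000160430, at 274, 289 and 281 CPM in WT hippocampus and 293, 375 and 177 in 5 × FAD hippocampus, and at 230, 215 and 232 against 300, 234 and 233 in cortex. The WT libraries were tight and the 5 × FAD hippocampus libraries lay on both sides of them, with a log2 fold change of 0.01 (95% interval -0.67 to 0.70). U2af2, the subunit that binds the polypyrimidine tract, was picked for its gene sum, which was 101, 105 and 72.4 CPM in WT hippocampus and 143, 154 and 114 in 5 × FAD. The groups did not overlap there (log2 fold change 0.60, SE 0.21, edgeR quasi-likelihood with Benjamini-Hochberg adjusted p = 0.532 over gene sums), and in cortex the order was not kept, at 179, 121 and 100 against 83.0, 120 and 133 CPM.

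Other splicing factors, a list of 72 genes outside the members, gave 278 transcripts of 60 genes. In the hippocampus 199 were tested and edgeR called 0, with 13 at an unadjusted p under 0.05 (6 higher and 7 lower) and a median log2 fold change of 0.15, close to the members' 0.16. In the cortex 201 were tested and 0 called, with 8 under 0.05 (6 higher and 2 lower) and a median of 0.08. DESeq2 called 0 of them in both regions. No difference between the members and this list was tested.

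Whether the genotype effect differed between regions was tested as an interaction over all 12 libraries. Of 159 members tested, edgeR called 0, against 2 of 24632 transcripts (0.00812%), and 9 members had an unadjusted p under 0.05 (5 higher and 4 lower, 5.66%), against 6.89% of all transcripts. DESeq2 called 1, the Srsf5 transcript above, and 99 of all transcripts (0.402%). Without 5 × FAD hippocampus library 1 edgeR called 7 transcripts (0.0268%), of which 1 was a member, Hnrnph1 ENSMUST00000126737, which was at 0 in libraries 2 and 3 of that group. The interval of the interaction lay within a 2-fold change for 36 members, so for most a difference of that size could not be told from none.

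Between the regions themselves, 100 of 159 tested members were above 0, or higher in hippocampus, and 59 below, with a median log2 difference of 0.13 beside -0.00 for all transcripts. Without 5 × FAD libraries 1 and 2 the median was -0.015, and in WT libraries alone it was 0.042. None was called by edgeR (0 members, against 630 of 24632 transcripts or 2.56%), 17 had an unadjusted p under 0.05 (13 higher and 4 lower in hippocampus, 10.7%), against 14.4% of all transcripts, and DESeq2 called 4 members beside 5.59% of all transcripts. Without 5 × FAD hippocampus library 3, edgeR called 808 of all transcripts (3.09%), and 3 members (Hnrnpk ENSMUST00000177377, Tra2b ENSMUST00000160579 and Ewsr1 ENSMUST00000144238). Of the summed transcripts, 31 of 41 genes were above 0, with a median of 0.16. Among the 4 DESeq2 calls was Srsf11 ENSMUST00000127778 (log2 difference 5.88, DESeq2 adjusted p = 0.0375). It switched between 0 and 441 to 841 counts from library to library and is described further below. The transcripts named next had the smallest p in this comparison or were called by DESeq2, and were chosen after their values were seen.

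Srsf11, an SR protein that partners with the U2 auxiliary factor, had a single-exon transcript, ENSMUST00000199742 (chr3:158030185-158031754, minus strand), at 15.8, 19.8 and 20.2 CPM in WT hippocampus and 26.1, 30.2 and 22.0 in 5 × FAD hippocampus. In cortex it was at 15.6, 15.7 and 12.9 CPM in WT and 18.4, 11.6 and 11.1 in 5 × FAD. Hippocampus was higher in both genotypes, with a log2 difference of 0.63 (SE 0.17, edgeR quasi-likelihood with Benjamini-Hochberg adjusted p = 0.0886, DESeq2 adjusted p = 0.0313). Hnrnpk ENSMUST00000177377 was at 39.9, 31.4 and 48.8 CPM in WT hippocampus, 72.8, 45.3 and 31.0 in 5 × FAD hippocampus, 18.7, 27.8 and 26.2 in WT cortex and 34.6, 24.5 and 23.8 in 5 × FAD cortex. Its log2 difference was 0.78 (SE 0.23, edgeR quasi-likelihood with Benjamini-Hochberg adjusted p = 0.116, DESeq2 adjusted p = 0.0379). Srpk1 ENSMUST00000126683 went the other way, lower in hippocampus by the values above, with a log2 difference of -0.29 (SE 0.10, edgeR quasi-likelihood with Benjamini-Hochberg adjusted p = 0.200, DESeq2 adjusted p = 0.0341).

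Some transcripts switched between high levels and 0 from library to library. Srsf11 ENSMUST00000127778 (chr3:158011503-158023140, minus strand, 9 exons) had 797, 802 and 841 counts in WT hippocampus, 0, 802 and 441 in 5 × FAD hippocampus, 0, 0 and 0 in WT cortex and 751, 617 and 0 in 5 × FAD cortex. All of its bases lie within those of Srsf11 ENSMUST00000152274, of which they make up 56.6%. The longer transcript was at 190, 26.1 and 63.9 CPM in WT cortex, where the shorter was at 0, and at 21.7, 16.7 and 23.6 in 5 × FAD cortex. Its cortical log2 fold change was -2.17 (SE 0.69, edgeR quasi-likelihood with Benjamini-Hochberg adjusted p = 0.885). The sum over 11 Srsf11 transcripts was 479, 542 and 520 CPM in WT hippocampus, 395, 632 and 411 in 5 × FAD hippocampus, 476, 327 and 391 in WT cortex and 526, 479 and 344 in 5 × FAD cortex. Its highest value was 1.93 times its lowest, so the gene sum varied far less than the transcript within it.

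Hnrnph1 ENSMUST00000126737 was the other member of this kind, with 0 counts in 5 × FAD hippocampus libraries 2 and 3 and 111 to 271 counts in the other 10 libraries. Transcripts that had 100 or more counts in part of the libraries and 3 or fewer in every remaining library numbered 2 of the 185 members and 379 of all 48033. Among members with a mean of at least 20 CPM, the highest library was at least 5 times the lowest for 15 of 70 (21.4%), against 21.6% of all 7278 such transcripts.

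Hnrnpl and Srrm1 gave further cases, chosen after their values were seen. Hnrnpl ENSMUST00000174755 was at 134, 138 and 172 CPM in WT hippocampus and 126, 118 and 152 in 5 × FAD hippocampus, but at 12.8, 148 and 8.16 in WT cortex and 145, 16.9 and 164 in 5 × FAD cortex. The 3 low libraries were all of cortex and of both genotypes. Srrm1 ENSMUST00000150619 (16 exons) ran from 2.69 to 179 CPM, a range of 66.5 times, and Srrm2 ENSMUST00000189977 was at 690 CPM in 5 × FAD hippocampus library 1 and at 68.6 to 131 elsewhere.

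**Figure D5:**
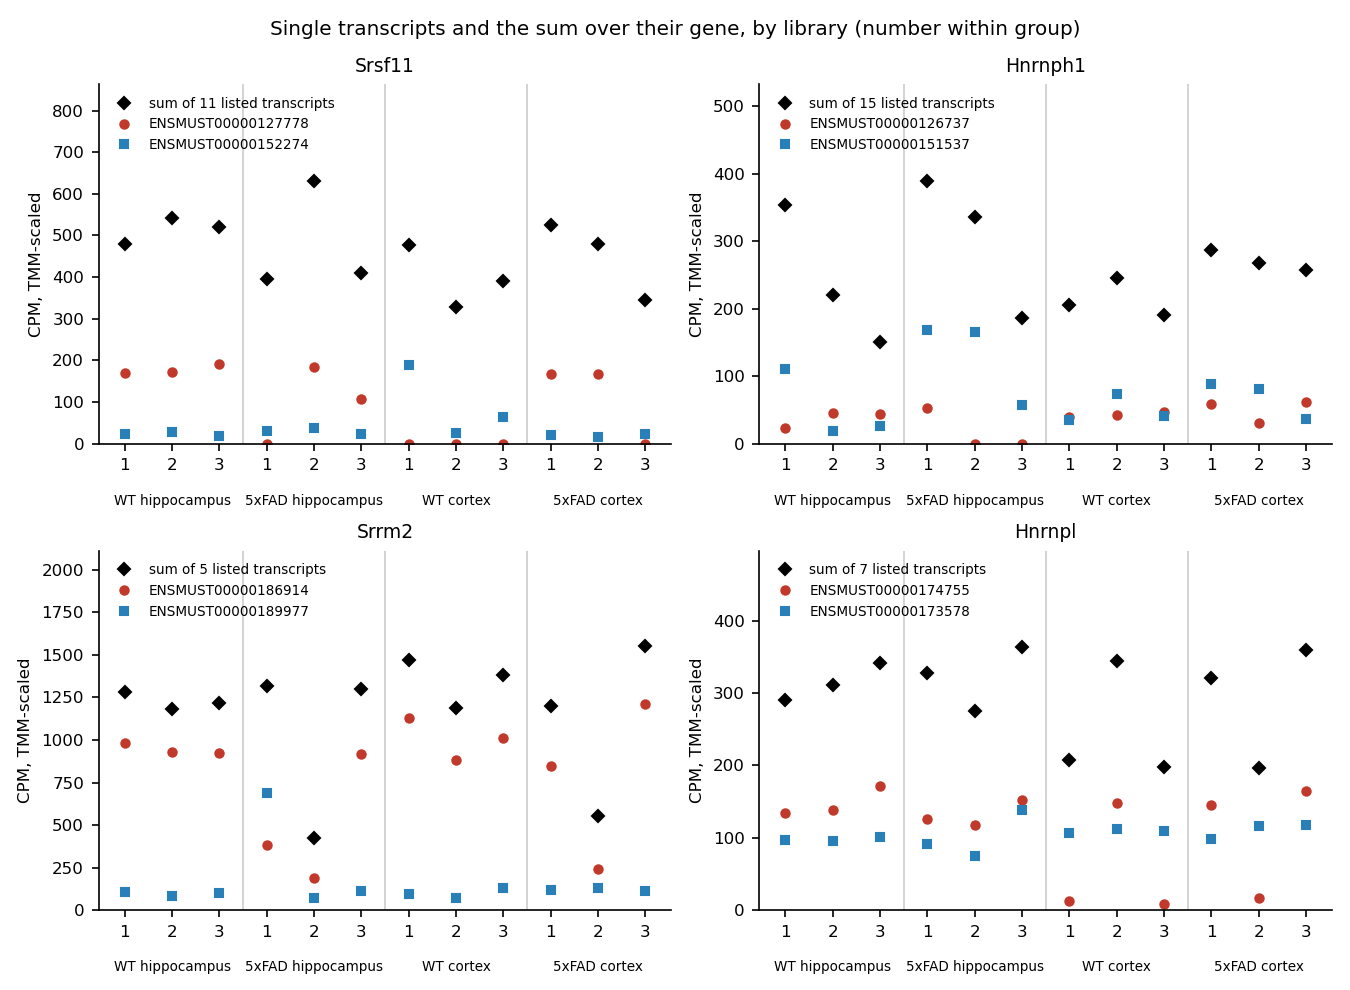
CPM per library (vertical axes from 0) of 2 transcripts of Srsf11, Hnrnph1, Srrm2 and Hnrnpl, as red and blue points, and of the sum over all listed transcripts of the gene, as black diamonds. The Srsf11 sum stays between 327 and 632 while ENSMUST00000127778 is at 0 in 5 libraries, and the Srrm2 sum is low in 5 × FAD library 2 of both regions.

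Summing by gene narrowed the spread between replicates. The median SD of log2 CPM within groups was 0.388 for 118 member transcripts, 0.25 for 34 gene sums and 0.368 for 14262 transcripts of the whole table. The steadiest members were Srpk1 ENSMUST00000126683 (0.0993) and Hnrnpll ENSMUST00000184889 (0.0997), and the widest was Srrm1 ENSMUST00000150619 (1.9). With gene sums, edgeR called 0 of 41 genes in the hippocampus, against 0.0529% of all 11345 sums tested, and 0 of 40 in the cortex, against 0.0175% of 11409. At an unadjusted p under 0.05 there were 4 in the hippocampus (U2af2, Srsf2, Srsf4 and Srsf1), against 8.68% of all sums, and 2 in the cortex (Hnrnpa3 and Srpk1), against 6.68%. The 95% interval lay within a 2-fold change for 28 of 41 gene sums in the hippocampus and 33 of 40 in the cortex.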

How the data were processed

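The authors extracted total RNA with TRIzol, depleted ribosomal RNA and sequenced stranded paired-end libraries. The deposited table holds raw counts for each transcript as whole numbers. The submitters' processing notes name Trimmomatic 0.36 and edgeR. The aligner, counting program, genome build, annotation and use of strand in counting of this table are not given in the sources used here. For its circRNA work the paper also names RNase R, which digests linear RNA, and a Burrows-Wheeler aligner. The labels of these libraries name neither, so whether either step applied to these counts is not stated. All 12 columns of counts were used and 0 were left out. Groups and replicate numbers came from the labels.

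Gene names, types, coordinates and splice sites came from GENCODE M21 on GRCm38, where 225 Ensembl identifiers had no match. Counts were tested over the whole table with edgeR 4.0.16 in R 4.3.3 (filterByExpr, TMM, quasi-likelihood, Benjamini-Hochberg, threshold 0.05), within each region for genotype and over 12 libraries for region and interaction. 25 members passed no filter. Tables and plots used Python 3.11.15, pandas 2.3.3, numpy 2.4.6 and matplotlib 3.10.9, and the fits were tested on simulated data. Alternatives included DESeq2 1.42.0, other scalings and filters, a replicate block and leaving out libraries.

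The members, lists and tests were chosen with earlier results of these data known. Named transcripts were those called, the one with most counts in each role, the 5 smallest unadjusted p-values per genotype comparison, those switching between at least 100 and at most 3 counts, Tardbp, and others said to be picked after their values were seen. The results of 1 marker gene are not reported here.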

Additional observations from a re-analysis of the deposited data

How the results depend on the processing

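The comparisons were repeated under 17 alternatives in the hippocampus, 17 in the cortex, 18 for the interaction and 24 for the regions. In the hippocampus 0 members were called under every alternative. In the cortex DESeq2 called 1 (Hnrnpa3 ENSMUST00000132392) and all others 0. For the interaction DESeq2 called 1 (Srsf5 ENSMUST00000125814), and leaving out each library in turn gave 0 to 1 (Hnrnph1 ENSMUST00000126737, without 5 × FAD hippocampus library 1). For hippocampus against cortex, DESeq2 called 4, leaving out each library in turn gave 0 to 3, leaving out 5 × FAD libraries 1 and 2 gave 2 and WT libraries alone gave 1. The 3 calls came without 5 × FAD hippocampus library 3 (Hnrnpk ENSMUST00000177377, Tra2b ENSMUST00000160579 and Ewsr1 ENSMUST00000144238), and 1 call each came without 5 × FAD hippocampus library 1 (Hnrnph1 ENSMUST00000126737) and 5 × FAD cortex library 1 (Srsf11 ENSMUST00000199742). In WT libraries alone the call was Srsf11 ENSMUST00000127778. This transcript and Hnrnph1 ENSMUST00000126737 are those that switched between high levels and 0. The cause of these changes was not tested. The median log2 fold change of the members ran from -0.118 to 0.221 in the hippocampus, from -0.026 to 0.061 in the cortex and from -0.015 to 0.175 between the regions.

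The labels do not say that a replicate number marks the same mouse in both regions. Same-numbered libraries deviated together only weakly (r of -0.039 to 0.009 between genotypes and 0.006 to 0.133 between regions). Between regions, libraries of 1 genotype with different numbers had r of -0.106 to 0.058. The numbers were not taken as pairs. With the replicate block 0 members were called in each of the 4 comparisons, and the calls over all transcripts went from 4 to 0 in the hippocampus, 12 to 0 in the cortex, 2 to 0 for the interaction and 630 to 266 for the regions. Over all alternatives those counts ran from 0 to 127, 0 to 102, 0 to 99 and 4 to 1378. At these depths members under 10 CPM, such as Tardbp, can show only large differences.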
